A study of Mus musculus with 20 samples.

Results

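The TRIM genes encode proteins with a tripartite motif, in which a RING domain, B-box domains and a coiled coil follow each other. Members were the protein-coding genes named Trim and a digit whose level averaged at least 1 CPM (the counts of a gene scaled to a common library size) over all 20 libraries. By this rule 39 of the 68 protein-coding Trim genes were members, out of 78409 genes listed. Just inside the limit was Trim7 at 1.03 CPM, and just outside were Trim45 at 0.864 and Trim46 at 0.802 CPM. Of the 29 genes left out, 13 had no count in any library.

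The libraries were made from bone marrow-derived macrophages (BMDMs) of female wild-type C57BL/6J mice, with 4 libraries in each of 5 groups. One group received PBS. The other groups received airway fluid fractions from RNY1+/+ or RNY1-/- mice with ovalbumin-induced airway inflammation, the RNY1-/- mice carrying a CRISPR deletion of the small noncoding RNA gene RNY1. EVFx was the fraction enriched in extracellular vesicles (size exclusion fractions 1 to 4), given at 35000000 particles per µL, and ProteinFx the protein-enriched fraction (fractions 9 to 20), given at 0.75 µg per µL. Because the deletion was in the fluid donors and not in the sequenced cells, the level of RNY1 in the macrophages does not check the labels. Mice were 7 to 16 weeks old, fractions were kept for 5 days at 4 °C before use, and cells were treated on day 7 of culture. The names of all 20 libraries begin with the same prefix, and the sample titles name no batch. EVFx and ProteinFx were matched in dose only within each fraction, so that a difference between the fractions cannot be told apart from a difference in dose.

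Most TRIM proteins are E3 ubiquitin ligases: the RING domain brings a ubiquitin-loaded enzyme to a target, and the C-terminal part chooses the target. Many are made in response to interferon and act in the antiviral response, either on viral components or on the receptors and kinases that sense nucleic acids. In mice, a run of related genes on chromosome 7 has expanded into several copies of Trim5, Trim12, Trim30 and Trim34. Here the 39 members were described in 4 groups by role: 9 genes of the chromosome 7 cluster, 11 regulators of innate signalling, 3 chromatin co-regulators and 16 others.

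In the order of RefSeq protein-coding genes on GRCm38.p6, the cluster runs Trim6, Trim34a, Trim5, Trim12a, Trim34b, Trim12c, Gm38525, Trim30b, Trim30c, Trim30a and Trim30d, with no other protein-coding gene between them. Trim34b was below the limit. Start-site windows (250 bases before to 50 after the annotated start) were given by RefSeq for 29 members. They were searched on both strands for the interferon-stimulated response element, written GAAANNGAAA, to which the interferon-activated factor complex binds. The motif was in the window of 9 of these 29 members and in that of 3.99% of 27025 genes with a window. Of the 9 cluster genes 6 held it, with the match beginning between positions -49 and 10, counted from 0 at the annotated start. Trim21, Trim26 and Trim2 held it as well, Trim21 and Trim26 as a pair of overlapping matches. The windows of the cluster genes Trim6, Trim30b and Trim30c and of the signalling genes Trim13, Trim23, Trim25, Trim27, Trim32 and Trim56 held no match to these letters. A match is a description of the sequence and not a binding site. The 30 bases around the matches show how alike the copies are, each on the gene's own strand from 5′ to 3′, with the matched letters in capitals.
Trim5: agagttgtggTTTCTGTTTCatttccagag
Trim12a: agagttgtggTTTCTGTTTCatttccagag
Trim12c: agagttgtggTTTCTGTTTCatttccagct
Trim30a: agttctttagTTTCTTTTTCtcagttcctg
Trim30d: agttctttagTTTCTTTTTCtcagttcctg
Trim34a: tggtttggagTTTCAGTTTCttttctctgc
Trim21: agaggaaactGAAAGTGAAAtttggactgc
Trim26: ccgcttccgaTTTCACTTTCcttttctcgg

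On GRCm38.p6 these 30 bases are at chr7:104288136-104288165 for Trim5, chr7:104315466-104315495 for Trim12a, chr7:104353359-104353388 for Trim12c, chr7:104465210-104465239 for Trim30a and chr7:104507871-104507900 for Trim30d, all on the minus strand. Those of Trim34a are at chr7:104244457-104244486 on the plus strand, those of Trim21 at chr7:102565444-102565473 on the minus strand and those of Trim26 at chr17:36836976-36837005 on the plus strand. Trim5 and Trim12a shared the same 30 bases, as did Trim30a and Trim30d. The gamma-activated site, written TTCNNNGAA and also searched on both strands, was in 1 of the 29 member windows, that of Trim30c, and in 9.55% of all genes with a window.

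Total counts were between 2510005 and 8277366 per library, with a median of 5456425. Macrophage markers summed to between 8620 and 12968 CPM per library over all 8 genes of the list, and the T cell, B cell, eosinophil and dendritic cell markers to at most 1.68 CPM, with Epx at 0 in every library. The neutrophil list summed to 263 to 326 CPM with PBS, 139 to 204 with RNY1+/+ EVFx, 180.2 to 260.3 with RNY1-/- EVFx, 196 to 320.1 with RNY1+/+ ProteinFx and 237 to 346 with RNY1-/- ProteinFx, all but little of it S100a8 and S100a9, while Ly6g, Mpo and Elane were at 3 counts or fewer in all libraries. Fibroblast markers summed to between 8.62 and 42.0 CPM and airway epithelium markers to at most 3.30 CPM, with Sftpc at 0 in every library. The part of these lists in the results was not tested. The RNY1-/- ProteinFx libraries lay in pairs for several members, replicates 1 and 2 apart from replicates 3 and 4. PBS replicate 3 lay apart from the other PBS libraries for several members, below them for Trim47 and Trim17 and above them for Trim59. For Trim28 it was the lowest PBS library, at 19.9 CPM, with replicate 4 next at 29.2.

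Counts were tested with edgeR's quasi-likelihood test, and every adjusted p below is its Benjamini-Hochberg value over all genes tested in the comparison. A gene is said to have risen or fallen where this was under 0.05, and is called a DEG where its log2 fold change was also above 1 or below -1. Standard errors (SE) are on the log2 scale and n is 4 per group. The labels do not say whether the 4 libraries came from separate pools of fluid, mice or wells, so that p-values measure the spread between these libraries, which may be technical. In bulk libraries fewer cells of a type and less RNA per cell cannot be told apart.

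Every treatment was first compared with PBS. With RNY1+/+ EVFx, 35 members could be tested, of which 14 rose and 3 fell, and 7 were DEGs (6 higher, 1 lower). Over all genes in that comparison 44.5% passed the adjusted p (21.7% higher, 22.8% lower) and 16.4% were DEGs, 8.24% higher and 8.19% lower. With RNY1-/- EVFx, 13 of 34 members rose and 5 fell, and 11 were DEGs upwards and 2 downwards, beside 58.3% of all genes past the adjusted p (27.6% higher, 30.7% lower) and 22.5% DEGs, 9.01% higher and 13.5% lower. With RNY1+/+ ProteinFx, 15 of 34 rose and 4 fell, with 10 DEGs higher and 3 lower, beside 55.2% past the adjusted p (25.9% higher, 29.3% lower) and 21.3% DEGs, 8.96% higher and 12.4% lower. With RNY1-/- ProteinFx, 12 of 35 rose and 3 fell, with 9 DEGs higher and 2 lower, beside 35.7% past the adjusted p (16.7% higher, 19% lower) and 14.3% DEGs, 6.31% higher and 7.99% lower. The median log2 fold change of the members tested was 0.10, 0.22, 0.24 and 0.25 in the 4 comparisons, against -0.03 over all genes in each. The share of members past the adjusted p was thus near that of all genes, while the share of upward DEGs was above it. These comparisons share the PBS libraries. With library totals in place of TMM scaling, which moved the median of all genes by log2 -0.18, -0.24, -0.17 and -0.06, the members past the adjusted p with RNY1-/- EVFx were 11 higher and 8 lower and those with RNY1+/+ ProteinFx 12 higher and 7 lower.

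Of the upward DEGs 4 of 6, 8 of 11, 9 of 10 and 8 of 9 were genes of the chromosome 7 cluster. All 8 cluster genes that could be tested rose with RNY1+/+ EVFx and with RNY1-/- EVFx, and all 9 rose with RNY1+/+ ProteinFx and with RNY1-/- ProteinFx, with median log2 fold changes of 1.43, 1.96, 2.14 and 1.98. Trim6, Trim30b and Trim30c averaged 2.37, 0.609 and 2.62 CPM with PBS, below the filter of 3 CPM, which they passed through the treated libraries. A rise was thus the likelier outcome for them. Trim30b, tested against PBS with ProteinFx only, is among the cluster DEGs and medians there. Of the innate signalling genes 5 of 11, 4 of 10, 5 of 10 and 3 of 10 rose, of the chromatin genes none, and of the others 1 of 13, 1 of 13, 1 of 12 and 0 of 13. The cluster genes with the interferon motif in their window and those without it both rose. The summed level of all 39 members was 1093 ± 31.5 CPM (SD, n = 4) with PBS, 1736 ± 129 with RNY1+/+ EVFx, 2005 ± 188 with RNY1-/- EVFx, 2571 ± 131 with RNY1+/+ ProteinFx and 2287 ± 226 with RNY1-/- ProteinFx.

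**Figure D1:**
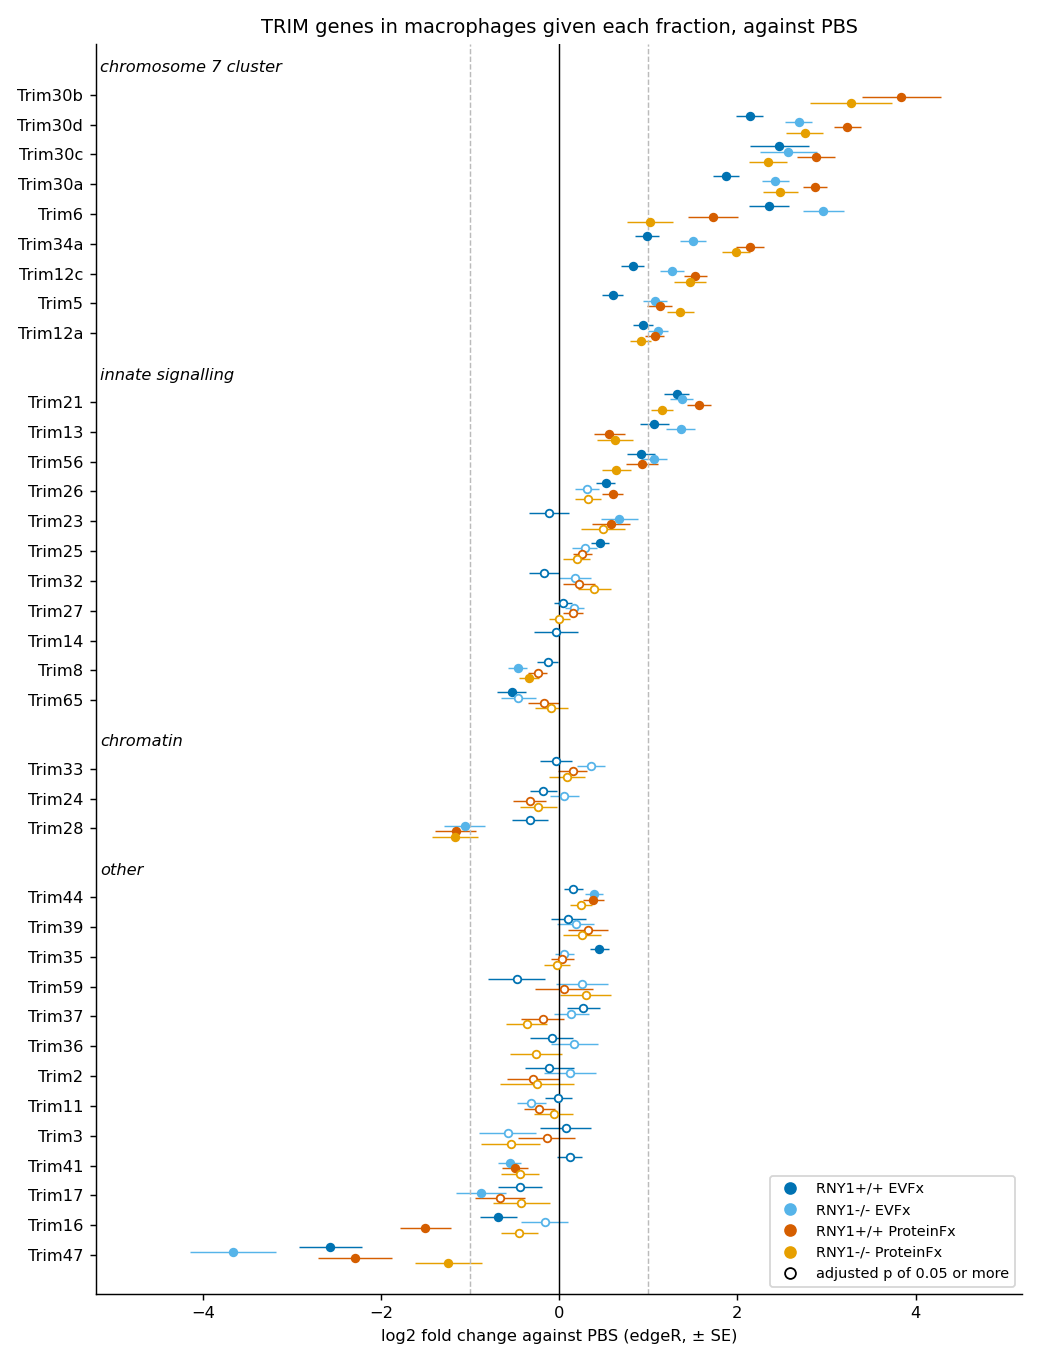
Log2 fold change against PBS (x axis, edgeR, bars are SE) of the 36 TRIM genes tested in at least 1 comparison with PBS (y axis, grouped by role), for the 4 treatments in colours, n = 4 libraries per group. Filled points have an adjusted p under 0.05 and dashed lines mark log2 fold changes of -1 and 1. All points of the chromosome 7 cluster lie above 0, and Trim47 lies below -1 in all 4.

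Trim30a (ENSMUSG00000030921), which has been described as a brake on Toll-like receptor signalling to NF-kB, was at 156, 144, 207 and 173 CPM in the PBS libraries, 634, 600.3, 514 and 449 with RNY1+/+ EVFx, 846, 789.7, 617 and 832 with RNY1-/- EVFx, 1125, 1152, 1002 and 1132 with RNY1+/+ ProteinFx and 744, 722, 1091 and 1029 with RNY1-/- ProteinFx. The 4 PBS libraries were below all others, and the RNY1-/- ProteinFx libraries fell into a lower and a higher pair. Its log2 fold change against PBS was 1.87 (SE 0.15, adjusted p = 2.3e-06) with RNY1+/+ EVFx, 2.43 (SE 0.15, adjusted p = 3e-07) with RNY1-/- EVFx, 2.87 (SE 0.13, adjusted p = 1.5e-08) with RNY1+/+ ProteinFx and 2.48 (SE 0.20, adjusted p = 6.8e-06) with RNY1-/- ProteinFx.

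Its neighbour Trim30d (ENSMUSG00000057596) is a close copy, and 6.99% of the 50-base words of its longest transcript are also in Trim30a. Trim30d was at 39.8, 38.2, 57.4 and 47.2 CPM in the PBS libraries, 195, 195, 168 and 152 with RNY1+/+ EVFx, 267, 256, 206 and 262 with RNY1-/- EVFx, 384, 405, 329 and 405 with RNY1+/+ ProteinFx and 244, 231, 361 and 329 with RNY1-/- ProteinFx. The order of the groups was the same as for Trim30a, with no overlap between PBS and any treatment. The log2 fold changes against PBS were 2.14 (SE 0.15), 2.69 (SE 0.16), 3.23 (SE 0.15) and 2.75 (SE 0.21) in the same order of treatments, with adjusted p from 1.5e-08 to 5e-06.

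Trim30c (ENSMUSG00000078616) was at 2.25, 2.47, 3.43 and 2.31 CPM in the PBS libraries, 18.6, 15.3, 7.01 and 9.54 with RNY1+/+ EVFx, 16.7, 17.4, 6.16 and 11.3 with RNY1-/- EVFx, 18.8, 18.8, 12.6 and 18.04 with RNY1+/+ ProteinFx and 14.7, 11.05, 10.8 and 14.01 with RNY1-/- ProteinFx. All treated libraries lay above the PBS libraries, and the EVFx libraries spread widely, from 7.01 to 18.6 CPM and from 6.16 to 17.4 CPM. Against PBS, Trim30c changed by 2.47 (SE 0.33), 2.57 (SE 0.32), 2.88 (SE 0.22) and 2.35 (SE 0.21), with adjusted p from 8.6e-07 to 0.00011.

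Trim30b (ENSMUSG00000052749) was scarcely detected without treatment, at 0.8197, 1.24, 0.114 and 0.267 CPM in the PBS libraries, 4.33, 2.88, 1.702 and 1.21 with RNY1+/+ EVFx, 4.14, 3.43, 1.11 and 1.77 with RNY1-/- EVFx, 10.49, 8.87, 5.403 and 9.11 with RNY1+/+ ProteinFx and 6.42, 5.39, 8.17 and 5.84 with RNY1-/- ProteinFx. In 2 of the PBS libraries it had 3 counts or fewer. With a mean below 3 CPM it was not tested for EVFx against PBS. Elsewhere it passed this filter through the ProteinFx libraries. Its mean was 0.609 CPM with PBS, 2.53 with RNY1+/+ EVFx and 2.61 with RNY1-/- EVFx. Its log2 fold change was 3.84 (SE 0.44, adjusted p = 3.1e-05) with RNY1+/+ ProteinFx and 3.28 (SE 0.46, adjusted p = 0.00046) with RNY1-/- ProteinFx. Without PBS replicate 2 these became 4.47 and 3.91, so that the size of the rise rests on few PBS counts.

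Trim12a and Trim12c are mouse relatives of Trim5, whose primate namesake binds retroviral capsids. Trim12a (ENSMUSG00000066258) was at 32.6, 31.9, 28.9 and 27.8 CPM in the PBS libraries, 57.3, 53.2, 45.6 and 48.7 with RNY1+/+ EVFx, 59.4, 62.02, 51.2 and 48.7 with RNY1-/- EVFx, 56.9, 58.6, 56.1 and 54.7 with RNY1+/+ ProteinFx and 54.5, 53.7, 53.4 and 56.1 with RNY1-/- ProteinFx. Treated libraries did not overlap with PBS and differed little among themselves. Trim12a rose by log2 fold changes of 0.94 (SE 0.11), 1.11 (SE 0.11), 1.07 (SE 0.11) and 0.91 (SE 0.12), with adjusted p from 8.2e-06 to 0.00022.

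Trim12c (ENSMUSG00000057143) was at 54.1, 58.7, 78.4 and 69.3 CPM in the PBS libraries, 104, 104, 109 and 90.7 with RNY1+/+ EVFx, 143, 129.7, 116 and 139 with RNY1-/- EVFx, 161, 178, 156 and 173 with RNY1+/+ ProteinFx and 166, 132, 198 and 189.7 with RNY1-/- ProteinFx. It rose by log2 fold changes of 0.82 (SE 0.13), 1.26 (SE 0.14), 1.53 (SE 0.13) and 1.47 (SE 0.18), with adjusted p from 2.5e-06 to 0.00041. It was the 1 member with a fractional count in all 20 libraries, which marks reads shared out between genes, and 24.5% of the 50-base words of its longest transcript are also in Trim5.

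Trim5 (ENSMUSG00000060441) was at 18.1, 20.7, 23.9 and 22.9 CPM in the PBS libraries, 29.7, 29.1, 28.9 and 27.2 with RNY1+/+ EVFx, 37.8, 41.2, 32.5 and 40.6 with RNY1-/- EVFx, 42.7, 48.2, 33.9 and 41.2 with RNY1+/+ ProteinFx and 47.2, 47.7, 61.2 and 53.4 with RNY1-/- ProteinFx. The rise was by 0.60 (SE 0.12), 1.08 (SE 0.13), 1.13 (SE 0.14) and 1.36 (SE 0.15), with adjusted p from 5.4e-05 to 0.0019. Since 24.7% of the 50-base words of its longest transcript are also in Trim12c, Trim5 and Trim12c cannot be fully told apart in these counts. Over all other genes together the share was 38.1%.

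Trim34a (ENSMUSG00000056144) was at 18.96, 18.8, 25.8 and 22.7 CPM in the PBS libraries, 42.01, 38.2, 37.1 and 33.1 with RNY1+/+ EVFx, 58.6, 56.2, 42.5 and 47.9 with RNY1-/- EVFx, 87.3, 103, 69.1 and 77.6 with RNY1+/+ ProteinFx and 76.5, 74.9, 97.8 and 75.3 with RNY1-/- ProteinFx. Every ProteinFx library was above every EVFx library, and PBS was below both. The log2 fold changes against PBS were 0.98 (SE 0.14), 1.497 (SE 0.15), 2.14 (SE 0.16) and 1.98 (SE 0.16), with adjusted p from 7e-07 to 0.00017. The longest transcript shares 41.3% of its 50-base words with Trim34b, which averaged 0.194 CPM.

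Trim6 (ENSMUSG00000072244), a ligase that makes free ubiquitin chains which activate the kinase IKK-epsilon, was at 2.87, 1.699, 2.52 and 2.402 CPM in the PBS libraries, 11.2, 12.01, 12.01 and 7.97 with RNY1+/+ EVFx, 12.2, 16.1, 15.3 and 19.3 with RNY1-/- EVFx, 6.51, 10.6, 5.78 and 5.38 with RNY1+/+ ProteinFx and 3.78, 4.34, 5.58 and 5.19 with RNY1-/- ProteinFx. In contrast to Trim34a and the Trim30 genes, its levels with EVFx were above most of those with ProteinFx, and PBS was below all. It rose by 2.36 (SE 0.23, adjusted p = 9.2e-06), 2.96 (SE 0.23, adjusted p = 1.5e-06), 1.72 (SE 0.28, adjusted p = 0.0004) and 1.02 (SE 0.26, adjusted p = 0.013). The last of these rested on PBS replicate 2, without which it was 0.85 (adjusted p = 0.051). No 50-base word of its longest transcript was found in another gene.

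**Figure D2:**
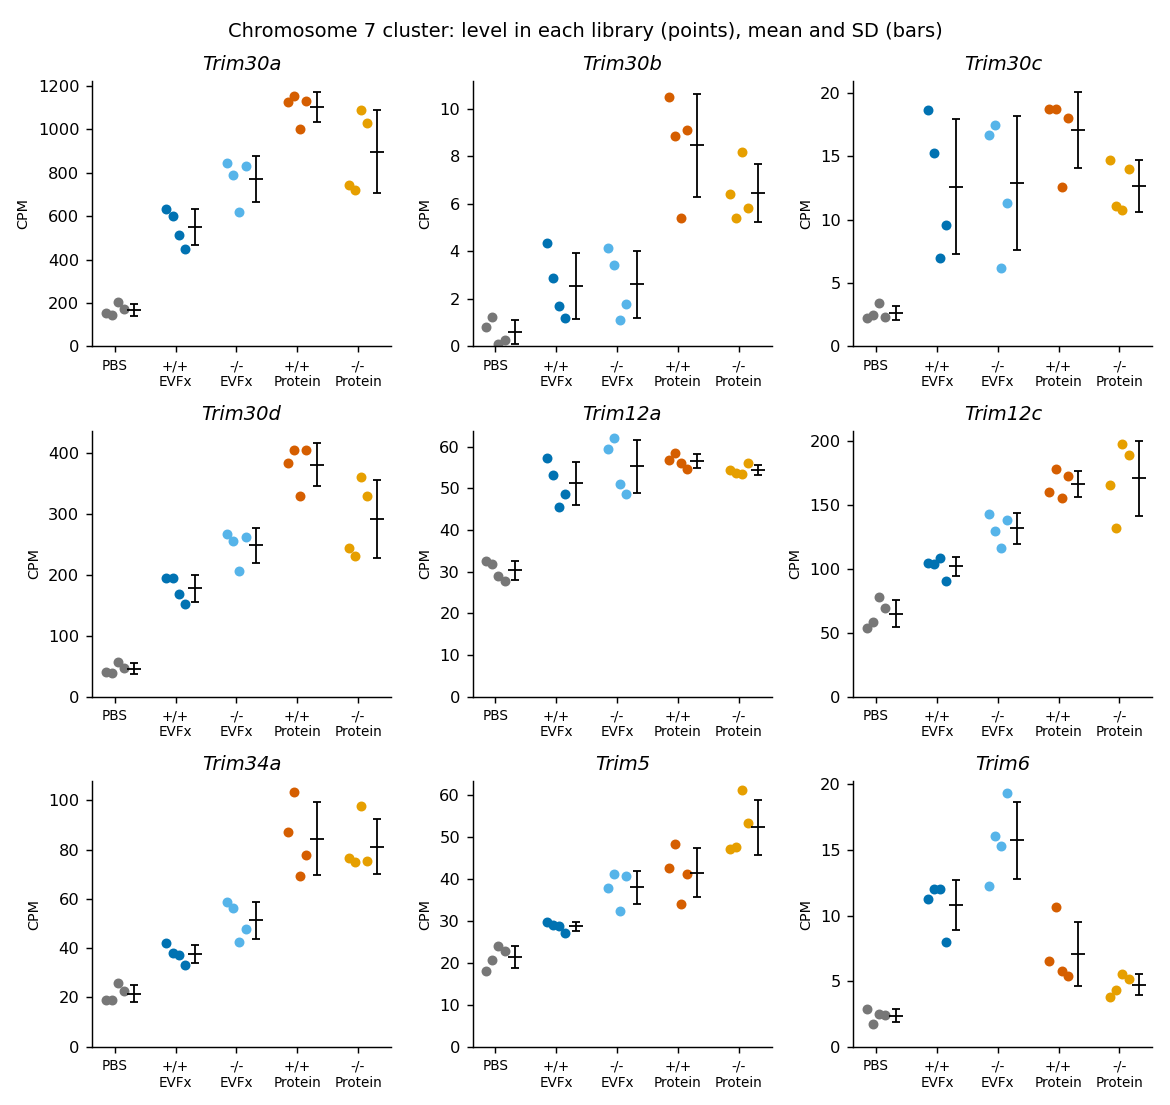
Level (CPM, y axis from 0, own scale in each panel) of the 9 chromosome 7 cluster genes in each of the 20 libraries (points, 4 per treatment group on the x axis), with the group mean and SD as bars. PBS has the lowest mean in each panel, and Trim6 alone has its highest group mean with RNY1-/- EVFx, at 15.7 CPM.

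Among the innate signalling genes, Trim21 (ENSMUSG00000030966) encodes a cytosolic antibody receptor that sends antibody-coated virus to the proteasome. It was at 18.6, 19.1, 17.2 and 18.4 CPM in the PBS libraries, 49.1, 44.1, 32.8 and 36.002 with RNY1+/+ EVFx, 43.8, 46.5, 33.6 and 37.2 with RNY1-/- EVFx, 50.5, 48.03, 39.3 and 55.7 with RNY1+/+ ProteinFx and 39.4, 39.5, 41.8 and 35.7 with RNY1-/- ProteinFx. The PBS libraries were below all treated libraries, which overlapped with one another. Trim21 rose by 1.32 (SE 0.14, adjusted p = 2.4e-05), 1.37 (SE 0.13, adjusted p = 5.9e-06), 1.57 (SE 0.14, adjusted p = 3.4e-06) and 1.15 (SE 0.12, adjusted p = 5.8e-05) in the 4 comparisons.

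Trim25 (ENSMUSG00000000275) encodes the ligase best known for adding ubiquitin chains to the RNA sensor RIG-I. Its level was 107, 109, 109.9 and 124 CPM in the PBS libraries, 145, 147, 125 and 132 with RNY1+/+ EVFx, 134, 142, 89.9 and 98.6 with RNY1-/- EVFx, 134, 121, 114 and 109.9 with RNY1+/+ ProteinFx and 155, 146, 97.8 and 95.1 with RNY1-/- ProteinFx. With RNY1+/+ EVFx it rose, and the groups did not overlap, by 0.46 (SE 0.10, adjusted p = 0.0032). In the other comparisons the log2 fold changes were 0.28 (SE 0.14, adjusted p = 0.11), 0.26 (SE 0.10, adjusted p = 0.053) and 0.20 (SE 0.15, adjusted p = 0.33), none past the threshold, and its treated libraries overlapped with PBS. After removal of the GC and length trends described below, Trim25 also passed with RNY1-/- EVFx and with RNY1+/+ ProteinFx. By DESeq2 it passed with RNY1+/+ ProteinFx as well, at 0.28 (adjusted p = 0.028).

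Trim13 (ENSMUSG00000035235), a ligase anchored in the endoplasmic reticulum, was at 6.05, 8.65, 9.03 and 7.38 CPM in the PBS libraries, 12.02, 15.5, 15.5 and 15.3 with RNY1+/+ EVFx, 18.8, 15.3, 17.6 and 16.7 with RNY1-/- EVFx, 10.2, 9.88, 10.9 and 10.1 with RNY1+/+ ProteinFx and 10.9, 9.65, 13.8 and 12.6 with RNY1-/- ProteinFx. Levels with both fractions were above those with PBS in all libraries, with ProteinFx only narrowly, at 9.65 CPM or more against at most 9.03 with PBS. The log2 fold changes were 1.07 (SE 0.16, adjusted p = 0.00031), 1.36 (SE 0.16, adjusted p = 3.5e-05), 0.56 (SE 0.17, adjusted p = 0.015) and 0.63 (SE 0.20, adjusted p = 0.033). The first fell to 0.97 without PBS replicate 1, so that it was no longer a DEG. With RNY1+/+ ProteinFx the rise was lost without PBS replicate 1 (adjusted p = 0.052). With RNY1-/- ProteinFx it was lost without any 1 of PBS replicates 1, 2 and 4 or RNY1-/- ProteinFx replicates 3 and 4, with adjusted p of 0.065 to 0.095. Both ProteinFx rises were lost with the GC and length trends removed, at 0.20 (adjusted p = 0.32) and 0.29 (adjusted p = 0.19), and the first also with library totals, at 0.39 (adjusted p = 0.071). The longest transcript shares 14.5% of its 50-base words with Gm9359.

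Trim56 (ENSMUSG00000043279), which takes part in STING and RNA sensor signalling, was at 15.4, 19.4, 25.8 and 19.8 CPM in the PBS libraries, 37.2, 33.97, 35.04 and 28.4 with RNY1+/+ EVFx, 36.5, 38.3, 35.96 and 31.97 with RNY1-/- EVFx, 32.3, 40.6, 25.9 and 37.3 with RNY1+/+ ProteinFx and 32.9, 28.7, 31.5 and 26.97 with RNY1-/- ProteinFx. It rose by 0.92 (SE 0.16, adjusted p = 0.00075), 1.07 (SE 0.15, adjusted p = 0.00011), 0.93 (SE 0.18, adjusted p = 0.0013) and 0.64 (SE 0.16, adjusted p = 0.013). With RNY1-/- EVFx it was 0.98 without PBS replicate 1, just under the fold limit.

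Trim26 (ENSMUSG00000024457), a ligase linked to the turnover of the factor IRF3, was at 24.2, 28.9, 24.5 and 24.02 CPM in the PBS libraries, 34.8, 32.9, 29.8 and 31.5 with RNY1+/+ EVFx, 27.8, 33.2, 23.2 and 22.4 with RNY1-/- EVFx, 35.2, 36.5, 30.7 and 34.7 with RNY1+/+ ProteinFx and 37.4, 33.3, 24.3 and 25.9 with RNY1-/- ProteinFx. It rose with RNY1+/+ EVFx by 0.52 (SE 0.11, adjusted p = 0.0026) and with RNY1+/+ ProteinFx by 0.60 (SE 0.12, adjusted p = 0.0015). With the RNY1-/- fractions the log2 fold changes were 0.31 (SE 0.14, adjusted p = 0.075) and 0.32 (SE 0.15, adjusted p = 0.11). With the GC and length trends removed Trim26 passed with both RNY1-/- fractions. In a fit with the replicate number as a block, Trim26 passed with both RNY1-/- fractions. It was at 0.30 (adjusted p = 0.048) with RNY1-/- EVFx and 0.32 (adjusted p = 0.029) with RNY1-/- ProteinFx. For RNY1-/- EVFx against PBS, deviations of same-numbered libraries correlated by 0.140 to 0.379. There the block also brought Trim65 past the threshold, at -0.47 (adjusted p = 0.049) in place of -0.46 (SE 0.19, adjusted p = 0.061). Trim33 passed there too, at 0.38 (adjusted p = 0.035) in place of 0.36 (SE 0.16, adjusted p = 0.075).

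Trim23 (ENSMUSG00000021712), which joins a RING ligase to an ARF-like GTPase, was at 17.4, 12.8, 29.3 and 20.3 CPM in the PBS libraries, 15.3, 17.8, 17.2 and 14.5 with RNY1+/+ EVFx, 27.3, 25.9, 25.6 and 27.9 with RNY1-/- EVFx, 24.9, 27.9, 27.1 and 25.5 with RNY1+/+ ProteinFx and 23.99, 21.8, 33.9 and 27.5 with RNY1-/- ProteinFx. It rose with RNY1-/- EVFx by 0.68 (SE 0.21, adjusted p = 0.016) and with RNY1+/+ ProteinFx by 0.58 (SE 0.21, adjusted p = 0.035), and both groups overlapped with PBS, whose replicate 3 was at 29.3 CPM. The rise with RNY1+/+ ProteinFx was lost without any 1 of 7 of the 8 libraries, with adjusted p of 0.057 to 0.086. Both rises were lost with library totals, at 0.44 (adjusted p = 0.091) and 0.41 (adjusted p = 0.12), and with the GC and length trends removed, at 0.25 (adjusted p = 0.099) and 0.09 (adjusted p = 0.57). Trim8 (ENSMUSG00000025034), a regulator of cytokine signalling, was at 74.2, 72.1, 61.5 and 73.2 CPM with PBS, 45.8, 41.4, 40.1 and 44.2 with RNY1-/- EVFx and 55.5, 51.2, 51.8 and 53.2 with RNY1-/- ProteinFx. With RNY1+/+ EVFx it was at 48.9 to 64.2 CPM and with RNY1+/+ ProteinFx at 50.1 to 54.8, and it passed with neither. Its mean was 52.8 CPM with RNY1+/+ ProteinFx and 52.9 with RNY1-/- ProteinFx. With RNY1-/- EVFx and RNY1-/- ProteinFx its log2 fold changes were -0.47 (SE 0.11, adjusted p = 0.0037) and -0.34 (SE 0.11, adjusted p = 0.039), both past the threshold. The second was lost without any 1 of PBS replicates 1, 2 and 4 or of the 4 RNY1-/- ProteinFx libraries (adjusted p of 0.071 to 0.11), and both turned direction, to 0.07 and 0.19, once the trends were removed. Trim65 (ENSMUSG00000054517), which acts on the RNA sensor MDA5, was at 8.01 to 9.63 CPM with PBS and 4.504 to 6.33 with RNY1+/+ EVFx and fell there, with a log2 fold change of -0.54 (SE 0.16, adjusted p = 0.021), a call lost without any 1 of PBS replicate 1 or RNY1+/+ EVFx replicates 2 and 4 (adjusted p of 0.055 to 0.076). Trim27 and Trim32 passed in no comparison with PBS in the main fits, with log2 fold changes of -0.17 to 0.39. Trim14, an adapter without a RING domain, was tested with RNY1+/+ EVFx only, at -0.03 (SE 0.25, adjusted p = 0.93), and lay between 0.398 and 4.79 CPM over the 20 libraries.

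The chromatin group is led by Trim28 (ENSMUSG00000005566), the co-repressor through which KRAB zinc finger proteins silence repeated elements. Trim28 was at 40.6, 39.5, 19.9 and 29.2 CPM in the PBS libraries, 22.8, 21.9, 20.4 and 26.1 with RNY1+/+ EVFx, 11.95, 15.3, 16.3 and 9.59 with RNY1-/- EVFx, 12.8, 14.4, 15.3 and 9.54 with RNY1+/+ ProteinFx and 14.7, 17.9, 13.1 and 8.82 with RNY1-/- ProteinFx. All libraries of RNY1-/- EVFx and both ProteinFx groups were below the PBS libraries, of which replicate 3 was the lowest, while RNY1+/+ EVFx overlapped with PBS. It fell, with a log2 fold change of -1.06 (SE 0.23, adjusted p = 0.0023) with RNY1-/- EVFx, -1.16 (SE 0.23, adjusted p = 0.0014) with RNY1+/+ ProteinFx and -1.17 (SE 0.26, adjusted p = 0.0069) with RNY1-/- ProteinFx, and was -0.33 (SE 0.20, adjusted p = 0.21) with RNY1+/+ EVFx. With the GC and length trends removed these 3 falls were -0.50 (adjusted p = 0.0085), -0.58 (adjusted p = 0.0044) and -0.63 (adjusted p = 0.0065), none of them a DEG, and without PBS replicate 3 the first 2 were -1.22 and -1.34. With RNY1-/- EVFx it was no longer a DEG without PBS replicate 1 (-0.92), PBS replicate 2 (-0.95) or RNY1-/- EVFx replicate 4 (-0.95), and with RNY1-/- ProteinFx replicates 1 and 2 alone its adjusted p was 0.066. Trim24 and Trim33, co-regulators of the same subfamily, had log2 fold changes of -0.33 to 0.36 against PBS and did not pass, apart from Trim33 with the block given above.

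Of the other 16 members, Trim47 (ENSMUSG00000020773) was the one that fell with every treatment. It was at 20.5, 19.9, 6.404 and 18.7 CPM in the PBS libraries, 2.71, 1.63, 2.603 and 2.899 with RNY1+/+ EVFx, 1.05, 2.23, 0.246 and 0.505 with RNY1-/- EVFx, 3.25, 1.27, 5.28 and 2.26 with RNY1+/+ ProteinFx and 8.502, 6.43, 2.79 and 8.04 with RNY1-/- ProteinFx. Every EVFx and RNY1+/+ ProteinFx library was below the lowest PBS library, while RNY1-/- ProteinFx overlapped with PBS replicate 3. With RNY1-/- EVFx 2 libraries had 3 counts or fewer. The means with RNY1+/+ and RNY1-/- EVFx, 2.46 and 1.01 CPM, were below the filter of 3 CPM, which Trim47 passed through the group compared with them. The log2 fold changes were -2.57 (SE 0.35, adjusted p = 0.00014), -3.66 (SE 0.48, adjusted p = 8.9e-05), -2.29 (SE 0.41, adjusted p = 0.00079) and -1.25 (SE 0.38, adjusted p = 0.027). Without PBS replicate 3 the first 3 became -2.82, -3.89 and -2.55, and without RNY1-/- EVFx replicate 2 the second became -4.32. The last call was lost without any 1 of PBS replicates 1, 2 and 4 or RNY1-/- ProteinFx replicates 2 and 3, with adjusted p of 0.059 to 0.073. After removal of the GC and length trends described below, Trim47 with RNY1-/- ProteinFx was at -0.44 (adjusted p = 0.21).

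Trim16 (ENSMUSG00000047821), which takes part in the clearing of damaged lysosomes, was at 5.64, 7.801, 7.09 and 5.61 CPM in the PBS libraries, 3.23, 3.13, 5.01 and 3.38 with RNY1+/+ EVFx, 5.91, 3.28, 7.39 and 3.701 with RNY1-/- EVFx, 1.53, 2.03, 3.64 and 1.301 with RNY1+/+ ProteinFx and 5.01, 5.52, 3.19 and 4.15 with RNY1-/- ProteinFx. It was lowest with RNY1+/+ ProteinFx, where its mean of 2.13 CPM was below the filter of 3 CPM, which it passed through the PBS libraries. It fell there, with a log2 fold change of -1.51 (SE 0.29, adjusted p = 0.0011), and fell with RNY1+/+ EVFx as well, at -0.69 (SE 0.21, adjusted p = 0.021). The latter was lost without PBS replicate 2 or any 1 of RNY1+/+ EVFx replicates 1, 2 and 4 (adjusted p of 0.058 to 0.071). With the RNY1-/- fractions the log2 fold changes were -0.16 (SE 0.26, adjusted p = 0.61) and -0.45 (SE 0.21, adjusted p = 0.11).

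Trim41 (ENSMUSG00000040365), a ligase that binds viral nucleoproteins, was at 39.6, 42.3, 29.96 and 36.5 CPM in the PBS libraries, 33.1, 33.5, 32.2 and 43.9 with RNY1+/+ EVFx, 22.5, 22.5, 21.4 and 19.2 with RNY1-/- EVFx, 23.2, 20.3, 24.1 and 25.7 with RNY1+/+ ProteinFx and 30.04, 36.1, 17.1 and 19.7 with RNY1-/- ProteinFx. It fell with RNY1-/- EVFx, at -0.56 (SE 0.13, adjusted p = 0.0034), and with RNY1+/+ ProteinFx, at -0.50 (SE 0.14, adjusted p = 0.012). With the GC and length trends removed neither passed, at -0.08 (adjusted p = 0.47) and -0.01 (adjusted p = 0.96). Trim17 (ENSMUSG00000036964) was at 11.5, 10.97, 4.46 and 9.25 CPM with PBS and 5.25, 4.32, 3.202 and 3.62 with RNY1-/- EVFx and fell, with a log2 fold change of -0.88 (SE 0.28, adjusted p = 0.019), a call lost without any 1 of PBS replicates 1 and 2 or RNY1-/- EVFx replicate 4 (adjusted p of 0.052 to 0.059). Trim44 (ENSMUSG00000027189), which has no RING domain, was at 39.96, 42.3, 46.7 and 40.04 CPM with PBS, 47.7, 47.8, 46.1 and 45.8 with RNY1-/- EVFx and 43.1, 50.4, 46.996 and 55.001 with RNY1+/+ ProteinFx. It rose by 0.39 (SE 0.10, adjusted p = 0.0053) and 0.38 (SE 0.12, adjusted p = 0.017), both lost with library totals, at 0.15 (adjusted p = 0.21) and 0.21 (adjusted p = 0.14), and the second also with the trends removed, at 0.18 (adjusted p = 0.13), and without any 1 of PBS replicates 1 and 4 or RNY1+/+ ProteinFx replicate 4 (adjusted p of 0.05 to 0.057). Trim35 was at 125 to 161 CPM with PBS and 163 to 197 with RNY1+/+ EVFx and rose by 0.45 (SE 0.11, adjusted p = 0.0064), a call lost with library totals, at 0.27 (adjusted p = 0.061). Trim2, Trim3, Trim11, Trim36, Trim37, Trim39 and Trim59 passed in no comparison with PBS in the main fits, with log2 fold changes of -0.58 to 0.33. Trim68, Trim62 and Trim7 were below the filter of 3 CPM in every comparison, at 0 to 3.38 CPM over the 20 libraries.

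**Figure D3:**
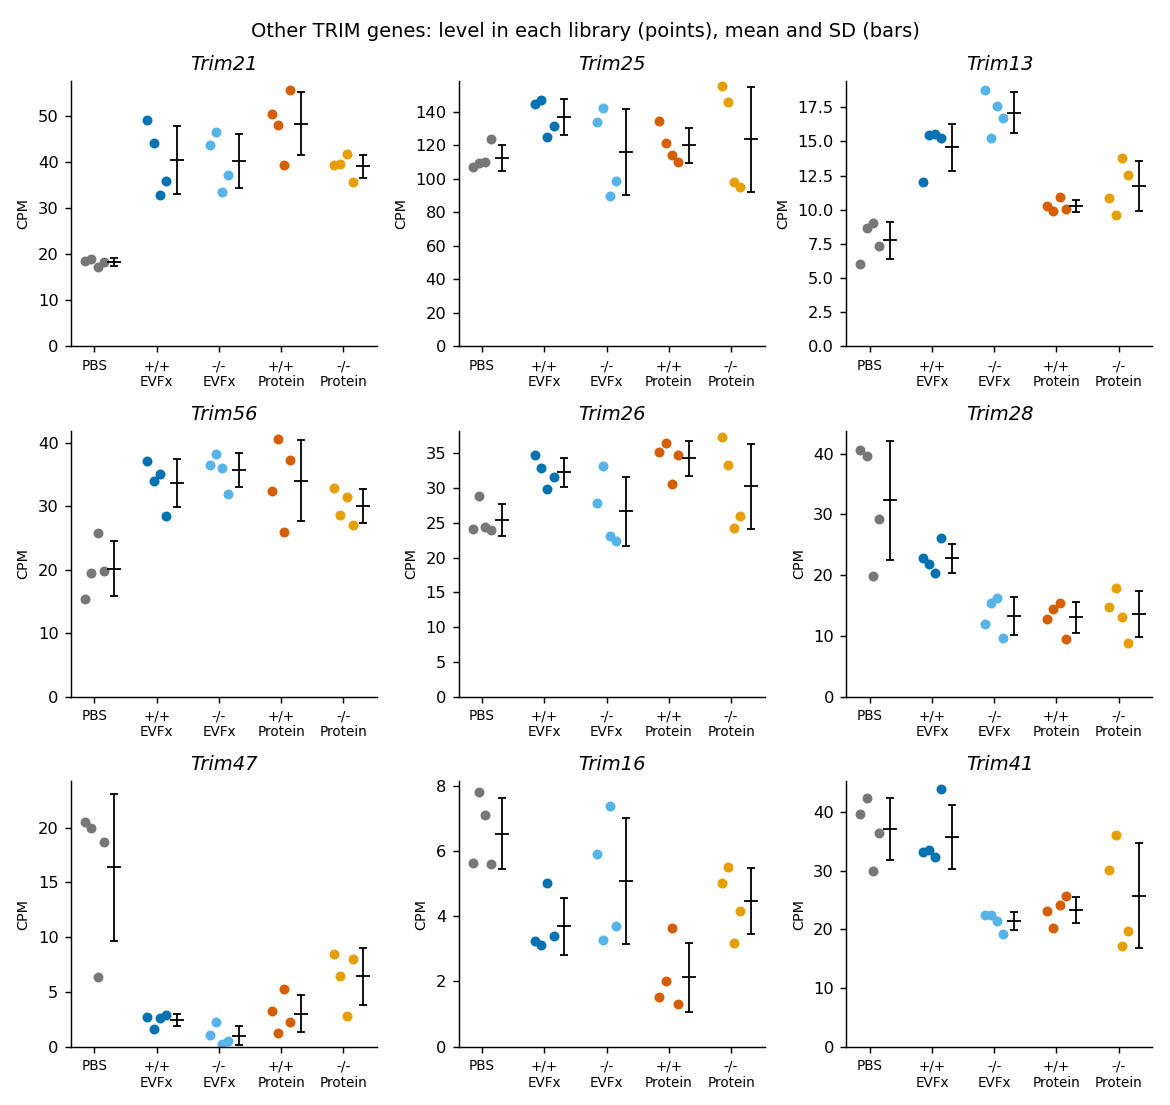
Level (CPM, y axis from 0, own scale in each panel) of 9 TRIM genes outside the cluster in each of the 20 libraries (points, 4 per treatment group on the x axis), with the group mean and SD as bars. Trim21 is higher in all treated libraries than with PBS, and Trim47 is at 18.7 to 20.5 CPM in 3 PBS libraries, 6.40 in the fourth and 0.246 to 8.502 in the treated ones.

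The pathways that TRIM ligases work with were counted in the same comparisons. Of 19 interferon-stimulated reference genes, 19, 19, 19 and 17 rose with RNY1+/+ EVFx, RNY1-/- EVFx, RNY1+/+ ProteinFx and RNY1-/- ProteinFx, and none fell. Of the 16 RIG-I and cGAS signalling partners found in the files, 11, 13, 12 and 11 rose and 1, 2, 1 and 0 fell. Rigi, the RNA sensor that Trim25 modifies, rose by 2.55 (SE 0.13), 2.54 (SE 0.13), 2.82 (SE 0.11) and 2.23 (SE 0.12). Of 24 genes listed as ubiquitin E1 and E2 enzymes, 6, 10, 12 and 8 rose and 1, 3, 4 and 2 fell. Beside these lists, 21.7%, 27.6%, 25.9% and 16.7% of all genes rose and 22.8%, 30.7%, 29.3% and 19% fell. Uba7, listed with them though it is the activating enzyme for ISG15, does not stand for the rest. It rose by 1.98 (SE 0.15), 1.60 (SE 0.18), 1.76 (SE 0.15) and 1.36 (SE 0.18). Of the TRIM relatives without a numbered name, Pml, the organiser of PML nuclear bodies, rose by 1.21 (SE 0.13), 0.88 (SE 0.20), 1.36 (SE 0.13) and 1.19 (SE 0.18), and Mid1 did not pass, while Mefv and Mid2 were below the filter.

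The next comparison asked how the donor genotype changes the response within each fraction. Between RNY1-/- and RNY1+/+ EVFx, 0 of 33 members tested were DEGs, while 12 were higher and 6 lower with RNY1-/- EVFx by the adjusted p alone. By DESeq2 0 were DEGs and 14 passed the adjusted p, and by the unadjusted p under 0.05 in edgeR 19 passed, beside 58.4% of all genes. With library totals 9 were higher and 7 lower. Over all genes 2.35% were DEGs, 0.378% higher and 1.98% lower, and 52.1% passed the adjusted p, 25.5% higher and 26.6% lower. In the cluster 6 of 8 genes were higher, by log2 fold changes of 0.45 for Trim12c, 0.49 for Trim5, 0.53 for Trim34a, 0.56 for Trim30a, 0.56 for Trim30d and 0.62 for Trim6. Trim12a and Trim30c, at 0.18 (SE 0.09, adjusted p = 0.11) and 0.12 (SE 0.29, adjusted p = 0.74), did not pass.

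Of the remaining genes, Trim23 differed by 0.80 (SE 0.10, adjusted p = 0.0002) and its EVFx groups did not overlap. Trim59 (ENSMUSG00000034317) was at 5.99, 6.63, 8.01 and 3.87 CPM with RNY1+/+ EVFx and 9.59, 7.298, 11.3 and 10.52 with RNY1-/- EVFx, a difference of 0.74 (SE 0.21, adjusted p = 0.011). Trim28 was lower, at -0.74 (SE 0.14, adjusted p = 0.0013) and so was Trim41, at -0.67 (SE 0.11, adjusted p = 0.00052), neither with overlap between the groups. Trim3 (ENSMUSG00000036989) was at 4.27, 4.63, 4.004 and 5.44 CPM with RNY1+/+ EVFx and 2.23, 3.28, 2.71 and 3.03 with RNY1-/- EVFx and was lower, at -0.65 (SE 0.20, adjusted p = 0.015), a call lost without RNY1-/- EVFx replicate 1 (adjusted p = 0.057). Trim33, Trim32, Trim13 and Trim44 were higher by 0.24 to 0.40, of which Trim13 passed only with all 8 libraries or without RNY1-/- EVFx replicate 2, Trim44 did not pass without replicate 4 of either group and Trim32 not without any 1 of 4 libraries (adjusted p of 0.056 to 0.1), and Trim35, Trim8 and Trim11 lower by log2 fold changes of -0.38 to -0.30, of which Trim11 did not pass without any 1 of 5 of the 8 libraries (adjusted p of 0.051 to 0.099) or by DESeq2 (adjusted p = 0.12). Trim21 and Trim25, at 0.06 (SE 0.13, adjusted p = 0.69) and -0.17 (SE 0.12, adjusted p = 0.27), did not pass.

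These EVFx differences moved with base composition. Over 10019 genes with a known transcript, the log2 fold change between the EVFx genotypes had a Spearman correlation of -0.654 with the GC content of the longest transcript, and over the 33 members tested it was -0.814, a description in which all points share the same 8 libraries. The higher members had GC contents such as 37.4% for Trim23, 37.6% for Trim59 and 39.5% for Trim30d, and the lower ones 59.6% for Trim28, 58.3% for Trim41 and 59.8% for Trim8. After trends with GC content and length had been removed in each library, 4 members passed the adjusted p in place of 18, beside 33.7% of all genes. They were Trim23 at 0.35 (adjusted p = 0.0072), Trim27 at 0.25 (adjusted p = 0.03), Trim32 at 0.54 (adjusted p = 0.0056) and Trim34a at 0.35 (adjusted p = 0.016), and 3 of the 4 were among the 18. Trim30a became 0.23 (adjusted p = 0.12), Trim30d 0.20 (adjusted p = 0.1), Trim5 0.15 (adjusted p = 0.18), Trim12c 0.12 (adjusted p = 0.21) and Trim6 0.41 (adjusted p = 0.057). Trim28 became -0.23 (adjusted p = 0.17) and Trim41 -0.20 (adjusted p = 0.069). In the comparisons with PBS the corresponding correlations over all genes were -0.0934, -0.424, -0.457 and -0.495, and the DEG count of the members was 7, 8, 11 and 6 after removal in place of 7, 13, 13 and 11. The DEGs lost were Trim13 with RNY1+/+ EVFx, Trim12a, Trim12c, Trim13, Trim28 and Trim5 with RNY1-/- EVFx, Trim12a, Trim28 and Trim5 with RNY1+/+ ProteinFx, and Trim21, Trim28, Trim47, Trim5 and Trim6 with RNY1-/- ProteinFx, and Trim56 was gained with RNY1+/+ EVFx and RNY1+/+ ProteinFx. All cluster genes tested kept an adjusted p under 0.05 there except Trim12a with RNY1-/- ProteinFx, at 0.42 (adjusted p = 0.069). By the adjusted p alone, removal gained Trim28 with RNY1+/+ EVFx and Trim25, Trim26, Trim27 and Trim35 with RNY1-/- EVFx. It also gained Trim25 and Trim27 with RNY1+/+ ProteinFx, and Trim26 and Trim37 with RNY1-/- ProteinFx. What the trends stand for was not tested.

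**Figure D4:**
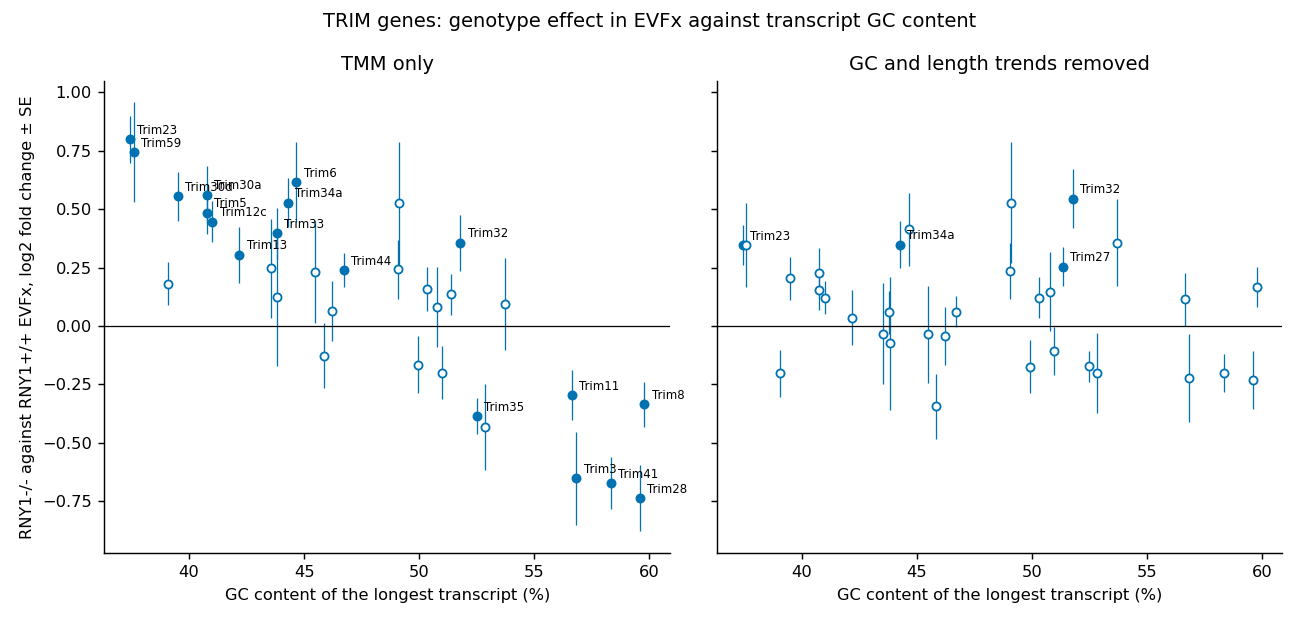
Log2 fold change of RNY1-/- against RNY1+/+ EVFx (y axis, bars are SE, n = 4 libraries per group) against the GC content of the longest transcript (x axis, %) for the 33 TRIM genes tested, with TMM scaling only (left) and after trends with GC content and length were removed in each library (right). Filled, named points have an adjusted p under 0.05, 18 on the left and 4 on the right.

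Between RNY1-/- and RNY1+/+ ProteinFx, 0 of 34 members passed the adjusted p in edgeR, beside 5.57% of all genes (2.2% higher, 3.37% lower), and 0 were DEGs, beside 1.82% (0.659% higher, 1.17% lower). By DESeq2 0 passed as well. By the unadjusted p under 0.05 there were 8, of which Trim16 and Trim47 were higher with RNY1-/- ProteinFx and Trim6, Trim21, Trim30a, Trim30b, Trim30c and Trim30d lower, beside 19.3% of all genes. The smallest adjusted p was that of Trim16, at 1.09 (SE 0.31, adjusted p = 0.058), and Trim47 was at 1.07 (SE 0.37, adjusted p = 0.12). Trim16 averaged 2.13 CPM with RNY1+/+ ProteinFx, below the filter of 3 CPM, which it passed through RNY1-/- ProteinFx at 4.47. A higher level with RNY1-/- ProteinFx was thus its likelier outcome, here and in the fit with trends removed. Trim21 was at -0.41 (SE 0.13, adjusted p = 0.095), Trim30a at -0.38 (SE 0.16, adjusted p = 0.2), Trim30d at -0.47 (SE 0.16, adjusted p = 0.13), Trim6 at -0.69 (SE 0.26, adjusted p = 0.16) and Trim25 at -0.04 (SE 0.14, adjusted p = 0.92). In the RNY1-/- ProteinFx group the Trim30a levels of replicates 3 and 4, 1091 and 1029 CPM, lay within the range of the RNY1+/+ ProteinFx libraries (1002 to 1152), and those of replicates 1 and 2, 744 and 722, below it. After removal of the GC and length trends 4 of 34 members passed, beside 8.87% of all genes in that fit, Trim16 higher at 1.08 (adjusted p = 0.034) and Trim30a, Trim30d and Trim21 lower, at -0.35 (adjusted p = 0.04), -0.44 (adjusted p = 0.013) and -0.40 (adjusted p = 0.05), the last just under the threshold before rounding. Of the interferon-stimulated reference genes, 12 of 19 were lower with RNY1-/- ProteinFx and none higher, and of the RIG-I and cGAS partners 3 of 16 lower and 1 higher.

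The genotype effects in the 2 fractions were then set against each other. In 1 fit to the 16 treated libraries, the interaction term is the RNY1-/- to RNY1+/+ difference with ProteinFx minus the same difference with EVFx. It passed for 10 of 34 members, 3 upwards and 7 downwards, beside 33% of all genes (16.8% upwards, 16.2% downwards), and 3 were DEGs, 1 upwards and 2 downwards, beside 7.79% (5.33% and 2.46%). With library totals, which moved the median of all genes by 0.16, 7 were upwards and 5 downwards. Of the cluster genes 5 of 9 passed, all downwards: Trim6 at -1.32 (SE 0.32, adjusted p = 0.0076), Trim30d at -1.03 (SE 0.21, adjusted p = 0.0038), Trim30a at -0.94 (SE 0.22, adjusted p = 0.0061), Trim34a at -0.68 (SE 0.19, adjusted p = 0.013) and Trim12c at -0.50 (SE 0.17, adjusted p = 0.035). Trim23 at -0.90 (SE 0.18, adjusted p = 0.0039) and Trim44 at -0.37 (SE 0.14, adjusted p = 0.049) were also downwards. Upwards were Trim47 at 2.15 (SE 0.60, adjusted p = 0.013), Trim41 at 0.77 (SE 0.23, adjusted p = 0.019) and Trim28 at 0.76 (SE 0.26, adjusted p = 0.031). Trim47 averaged 2.46 CPM with RNY1+/+ EVFx, 1.01 with RNY1-/- EVFx, 3.01 with RNY1+/+ ProteinFx and 6.44 with RNY1-/- ProteinFx. It passed the filter of 3 CPM through RNY1-/- ProteinFx, so that an upward term was the likelier outcome for it. For genotype in EVFx alone it was below the filter and not tested. For Trim21 and Trim25 the term was -0.47 (SE 0.19, adjusted p = 0.061) and 0.12 (SE 0.20, adjusted p = 0.65).

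The interaction calls changed with the RNY1-/- ProteinFx pair used and with removal of the GC and length trends. With replicates 3 and 4 of that group alone no member was a DEG, and Trim30a was at -0.64 (adjusted p = 0.053) and Trim6 at -1.01 (adjusted p = 0.13). With replicates 1 and 2 alone 5 members were DEGs. Without RNY1-/- EVFx replicate 2 the term of Trim47 became 2.82. After removal of the trends 6 of 34 members passed, beside 21.04% of all genes in that fit, Trim6 at -1.07 (adjusted p = 0.018), Trim30d at -0.66 (adjusted p = 0.005), Trim30a at -0.59 (adjusted p = 0.013), Trim34a at -0.48 (adjusted p = 0.043), Trim23 at -0.41 (adjusted p = 0.029) and Trim27 at -0.43 (adjusted p = 0.02), while Trim47 was at 1.51 (adjusted p = 0.057), Trim41 at 0.24 (adjusted p = 0.24), Trim28 at 0.20 (adjusted p = 0.54), Trim12c at -0.15 (adjusted p = 0.38) and Trim44 at -0.18 (adjusted p = 0.25). Trim30d kept an adjusted p under 0.05 without each library but lay above -1 without any 1 of 7, from -0.99 to -0.90, and the call of Trim41 was lost without RNY1-/- ProteinFx replicate 2 (adjusted p = 0.059). The calls of Trim44, Trim12c and Trim28 were each lost without any 1 of several libraries, those of Trim44 and Trim12c also with library totals in place of TMM scaling.

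**Figure D5:**
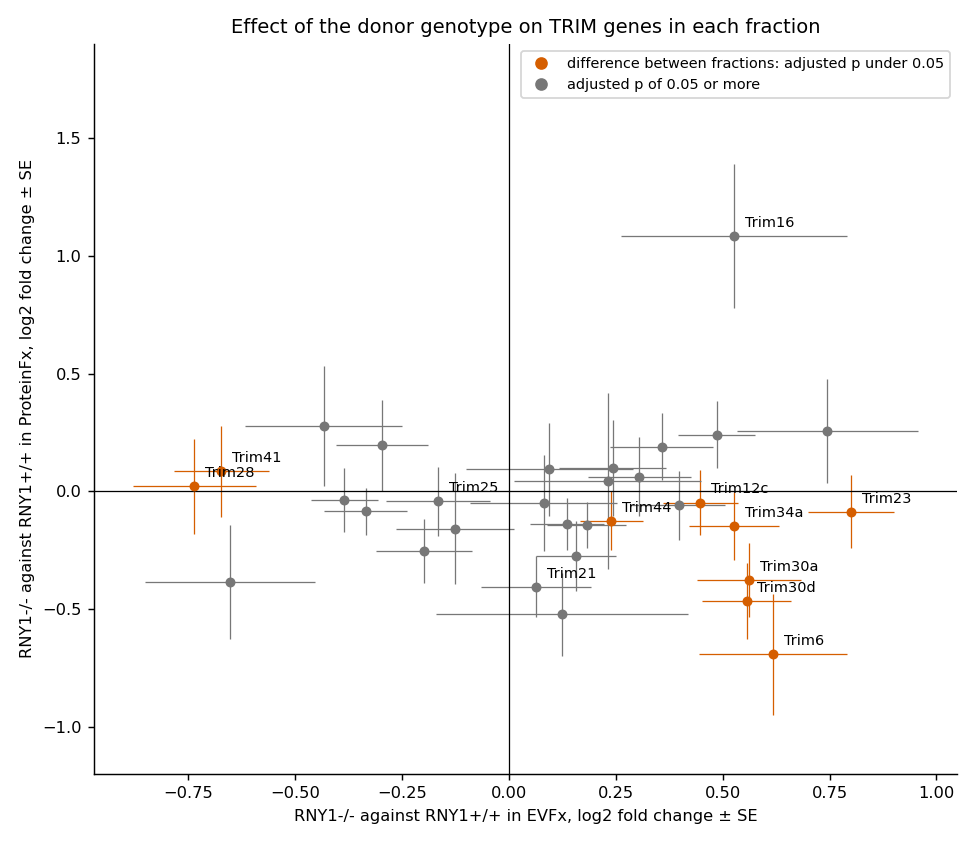
Difference between the donor genotypes, RNY1-/- against RNY1+/+ (log2 fold change, bars are SE), in EVFx (x axis) and in ProteinFx (y axis) for the 32 TRIM genes tested in both, n = 4 libraries per group. Orange points have an adjusted p under 0.05 for the difference between the fractions (9 of the 32). Trim6, Trim30a and Trim30d lie at the lower right, higher with RNY1-/- in EVFx and below 0 in ProteinFx.

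The last comparison set ProteinFx against EVFx from donors of the same genotype. From RNY1+/+ donors, 8 of 31 members were higher with ProteinFx and 6 lower, and 4 were DEGs, all upwards, beside 63.3% of all genes past the adjusted p (31.1% higher, 32.2% lower) and 13.5% DEGs, 6.71% higher and 6.82% lower. The 4 DEGs were in the cluster: Trim30b at 1.73 (SE 0.31, adjusted p = 0.00022), Trim34a at 1.16 (SE 0.12, adjusted p = 9.4e-07), Trim30d at 1.102 (SE 0.10, adjusted p = 4.5e-07) and Trim30a at 1.01 (SE 0.11, adjusted p = 1.8e-06), of which Trim30a lay below the fold limit without any 1 of RNY1+/+ EVFx replicates 3 and 4 or RNY1+/+ ProteinFx replicates 2 and 4. Trim12c and Trim5 were higher by 0.71 and 0.53, Trim23 by 0.70 and Trim32 by 0.40. Trim6 was lower, at -0.63 (SE 0.21, adjusted p = 0.017), a call lost without RNY1+/+ ProteinFx replicate 4 (adjusted p = 0.069). Trim28 was lower, at -0.84 (SE 0.14, adjusted p = 0.00012), and Trim41, Trim13, Trim37 and Trim35 by log2 fold changes of -0.61 to -0.41, of which Trim37 did not pass without any 1 of 6 libraries (-0.30 and adjusted p = 0.18 without RNY1+/+ ProteinFx replicate 1). Trim21 and Trim25 were at 0.26 (SE 0.13, adjusted p = 0.1) and -0.19 (SE 0.09, adjusted p = 0.062). After removal of the trends 14 of 31 members passed, 9 of them among the 14 above, beside 55.3% of all genes in that fit, and Trim30b alone was a DEG. The 5 that no longer passed were Trim28 at -0.29 (adjusted p = 0.06), Trim23 at 0.18 (adjusted p = 0.14), Trim5 at 0.17 (adjusted p = 0.13), Trim41 at -0.10 (adjusted p = 0.37) and Trim35 at -0.19 (adjusted p = 0.054).

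From RNY1-/- donors, 3 of 34 members were higher with ProteinFx and 3 lower, beside 29.2% of all genes (14.6% in each direction), and 2 were DEGs, beside 8.97% (4.82% higher, 4.15% lower). With library totals, which moved the median of all genes by 0.18, 7 were higher and 2 lower. Trim6 was the DEG lower with ProteinFx, at -1.96 (SE 0.21, adjusted p = 1.9e-05), and its groups did not overlap. Trim47 was the DEG higher with ProteinFx, at 2.41 (SE 0.44, adjusted p = 0.0012), against 0.246 to 2.23 CPM with RNY1-/- EVFx, and 3.10 without RNY1-/- EVFx replicate 2. Trim30b was higher by 0.98 (SE 0.33, adjusted p = 0.041) and Trim34a by 0.47 (SE 0.13, adjusted p = 0.019), the first lost without any 1 of 6 of the 8 libraries (adjusted p of 0.052 to 0.11). Trim13 was lower, at -0.76 (SE 0.16, adjusted p = 0.0032) and so was Trim56, at -0.43 (SE 0.11, adjusted p = 0.0086). Trim30a and Trim30d were at 0.05 (SE 0.17, adjusted p = 0.87) and 0.06 (SE 0.17, adjusted p = 0.82), and Trim21 and Trim25 at -0.23 (SE 0.12, adjusted p = 0.18) and -0.09 (SE 0.17, adjusted p = 0.76). The 2 comparisons of fractions share no library, and the difference between them is the interaction given above.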

How the data were processed

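RNA of mouse BMDMs was measured by 3′-end sequencing with molecular identifiers. According to the submitters' processing notes and the methods, reads were trimmed with fastp 0.24.0, aligned with STAR 2.7.11 to GRCm39 and deduplicated, and featureCounts (Subread 2.1.1) counted them by strand over exons and 3′ UTRs with a fraction of each multi-mapping read given to every gene it fits. These values were deposited by the authors: expected counts per gene, which need not be whole, and CPM, which here equalled the count over the library total, scaled. Between 0.592% and 0.841% of counts per library were in rows listed by identifier without a gene name.

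Expected counts were rounded and tested for each pair of groups with edgeR 4.0.16 in R 4.3.3 (TMM scaling, genes kept by filterByExpr whose mean was 3 CPM or more, quasi-likelihood test, Benjamini-Hochberg adjustment over all genes). The interaction was tested in 1 fit to the 16 treated libraries. Intervals and standard errors cover the spread between libraries. Scripts were tested on simulated data. Alternatives were DESeq2 1.42.0, library totals, other filters, all 20 libraries in 1 fit, adjusted p without the fold limit, each library left out, each pair of RNY1-/- ProteinFx replicates alone, a replicate block, and removal of trends with transcript GC content and length (splines with 4 degrees of freedom). GC content and the sharing of 50-base words came from GENCODE transcripts and start-site windows from RefSeq, both on GRCm38, an earlier build than that of the counts, so windows were matched by gene name only.

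The members and gene lists were chosen with earlier results of these data known. Values per library are given for Trim21 and Trim25, for DEGs (at most 12 per comparison) and for the next 6 members past the adjusted p by size of change. Other members named were added to account for every member. Replicate numbers are in the sample titles, which do not say what they share. The deviations of same-numbered libraries from their group means correlated above 0.1 in all 4 pairs for RNY1-/- EVFx against PBS (0.140 to 0.379) and for RNY1-/- ProteinFx against RNY1-/- EVFx (0.240 to 0.409), and these were taken as paired on that ground alone. The main fits hold no term for the replicate number, in these comparisons as in the others. Pairing entered only through the replicate block, given as an alternative.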

Additional observations from a re-analysis of the deposited data

Results flagged for a closer look

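In 16 members, 80 groups of 4 libraries were searched for a library far from the other 3, measured as its gap to the nearest relative to the range of the group, and 5 groups had one, where chance flags about 1 in 20. Trim13 was at 12.02 CPM in the lowest RNY1+/+ EVFx library and Trim16 at 5.01 CPM in the highest. Trim30c was at 12.6 CPM in the lowest RNY1+/+ ProteinFx library and Trim34a at 97.8 CPM in the highest RNY1-/- ProteinFx library. Trim47 was at 6.40 CPM in PBS replicate 3, the lowest of its group.

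For 10 of 34 members the interaction term, the genotype effect with ProteinFx minus that with EVFx, passed the adjusted p in edgeR, beside 33% of all genes. On the log2 scale it was -0.94 for Trim30a, -1.03 for Trim30d, -0.50 for Trim12c, -0.68 for Trim34a, -0.37 for Trim44, -0.90 for Trim23 and -1.32 for Trim6. It was 0.77 for Trim41, 0.76 for Trim28 and 2.15 for Trim47. With the GC and length trends removed, Trim12c, Trim28, Trim41, Trim44 and Trim47 no longer passed. Trim47 carries the limit from the filter given above.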

How the results depend on the processing

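The DEG counts of the members were 7, 13, 13 and 11 for RNY1+/+ EVFx, RNY1-/- EVFx, RNY1+/+ ProteinFx and RNY1-/- ProteinFx against PBS, 0 and 0 for genotype in EVFx and ProteinFx, 4 and 2 for fraction from RNY1+/+ and RNY1-/- donors, and 3 for the interaction. With GC and length trends removed the count was 8 for RNY1-/- EVFx and 6 for RNY1-/- ProteinFx against PBS, and 1 each for genotype in ProteinFx, fraction from RNY1+/+ donors and the interaction. With the adjusted p alone it was 17 for RNY1+/+ EVFx against PBS, 18 for genotype in EVFx, 14 and 6 for fraction, and 10 for the interaction. With filterByExpr alone or no filter, genotype in EVFx had 1. Genotype in ProteinFx had 1 with library totals or all 20 libraries in 1 fit and 2 without a filter. With RNY1-/- ProteinFx replicates 1 and 2 only, the count was 7 against PBS, 2 for genotype in ProteinFx and 5 for the interaction, and with replicates 3 and 4 only, 1 for fraction from RNY1-/- donors and 0 for the interaction. Leaving out 1 library gave 6 to 9, 11 to 14, 13 to 14 and 8 to 11 against PBS, 0 to 0 and 0 to 2 for genotype, 3 to 4 and 2 to 3 for fraction and 1 to 5 for the interaction. Of the 117 called gene results, 4 changed direction, all with trends removed: Trim8 to 0.067 and 0.19 with RNY1-/- EVFx and RNY1-/- ProteinFx against PBS, and Trim11 to 0.11 and Trim8 to 0.17 for genotype in EVFx. Over all alternatives to these results the call was lost 192 times and kept 1692 times, and when 1 library was left out it was lost 99 times and kept 914 times. What in the libraries underlies these changes was not tested. Counts of a few reads, as for Trim30b with PBS or Trim47 with RNY1-/- EVFx, limit the precision of their fold changes.

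A fit with the replicate number as a block gave the same DEG counts, 7, 13, 13, 11, 0, 0, 4, 2 and 3. By the adjusted p it brought 21 members past the threshold in place of 18 for RNY1-/- EVFx against PBS (Trim26, Trim33 and Trim65 gained) and changed no call for fraction from RNY1-/- donors, the comparisons taken as paired. Elsewhere it gained 6 for RNY1-/- ProteinFx against PBS, 21 in place of 15 (Trim3, Trim17, Trim23, Trim26, Trim32 and Trim41, adjusted p of 0.0012 to 0.035), Trim30c (0.02) and Trim59 (0.018) for fraction from RNY1+/+ donors and Trim21 (0.044) for the interaction, and it lost 4: Trim44 with RNY1+/+ ProteinFx against PBS (0.051), Trim11 (0.056) and Trim13 (0.059) for genotype in EVFx, and Trim44 for the interaction (0.055). Over all genes the share past the adjusted p became 60.9% in place of 35.7% for RNY1-/- ProteinFx against PBS. It was 62.7% in place of 58.3% for RNY1-/- EVFx against PBS and 47.7% in place of 55.2% for RNY1+/+ ProteinFx against PBS. For genotype in EVFx it was 54.0% in place of 52.1%, for fraction from RNY1+/+ donors 63.0% in place of 63.3% and for the interaction 33.2% in place of 33%. In the other 6 comparisons of a pair of groups at least 1 pair of same-numbered libraries correlated by 0.1 or less, and 0 to 4 of the 8 libraries correlated best with their own number. Of the comparisons taken as paired, 7 of 8 did so for fraction from RNY1-/- donors. For RNY1-/- EVFx against PBS it was 3 of 8, within the range of the other 6. RNY1-/- ProteinFx against PBS, not taken as paired, had the highest correlations, 0.510, 0.613 and 0.633 in replicates 1, 2 and 3, and 0.018 in replicate 4.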
